A study of Mus musculus with 36 samples.

Results

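The 10 genes described here concern transforming growth factor beta (TGF-beta) signalling, read in cultured mouse mesenchymal stem cells (MSCs). They were taken by name from the gene tables, in which all 10 of 10 were found among 24411 genes. They are the ligands Tgfb1, Tgfb2 and Tgfb3, the receptors Tgfbr1, Tgfbr2 and Tgfbr3, the latent binding proteins Ltbp1 and Ltbp2, the activin subunit gene Inhba, and Tgfbi, a matrix gene named for its induction by the ligand. MSCs had been grown from the femoral bone marrow (fBM-MSCs), vertebral bone marrow (vBM-MSCs), adipose tissue (A-MSCs) and lung (P-MSCs, for pulmonary) of untreated C57BL6/J mice aged 8 weeks. All 4 tissues were taken from the same 3 mice, but no source says which libraries come from the same mouse, so that tissue differences and mouse differences were separated only by the replicates of each tissue. Marrow was freed by crushing bone, lung and fat were digested with collagenase, and all cells were expanded on collagen I in the same medium with a Rock inhibitor for at most 3 passages. The way of isolation therefore cannot be told apart from marrow or non-marrow origin. RNA-seq libraries numbered 3 for fBM-MSCs, A-MSCs and P-MSCs and 2 for vBM-MSCs (vBM-MSC replicate 3 was not analysed), and the ATAC-seq data, which mark open chromatin, were 1 pooled peak list per tissue.

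TGF-beta ligands are secreted as inactive dimers wrapped in their own propeptide, which LTBP proteins tie to the extracellular matrix until integrins or proteases release the ligand. The free ligand binds TGFBR2, which recruits and phosphorylates TGFBR1, and SMAD2 and SMAD3 then carry the signal to the nucleus. TGFBR3 (betaglycan) presents ligand, TGF-beta 2 in particular, to the signalling receptors. In stromal cells the pathway is known for driving matrix production and the contractile myofibroblast programme, and bone matrix is a large store of latent TGF-beta.

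The MSC identity of the cultures was checked on transcripts. All 4 positive MSC markers (Itgb1, Cd44, Ly6a and Vcam1) were present in every tissue, while Ptprc was at 0.27 TPM or less and Pecam1, highest in A-MSCs, at 1.49 or less by mean. Cd34, a negative marker at the protein level, was at a mean of 54.02 TPM in fBM-MSCs against 1.04 to 7.40 in the other tissues. The summed negative markers, nearly all Cd34 by mean in fBM-MSCs, were at 79.19, 72.68 and 10.26 TPM in fBM-MSC replicates 1, 2 and 3. Replicate 3 thus stood apart from the other fBM-MSC libraries. Depth ranged from 19569650 to 40517739 expected counts per library. Each library was treated as a replicate, as labelled. Pairs of replicates differed by more than counting noise, but separately made libraries can do so in any case, so this cannot decide whether any is a repeat. In bulk RNA, fewer cells of a type and less RNA per cell cannot be told apart.

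Transcript levels are given as TPM (a share of all transcripts, scaled by transcript length, so that genes can be compared), with mean ± SD over libraries. Differences between tissues are edgeR log2 fold changes with the standard error (SE), and a difference was called at a Benjamini-Hochberg adjusted p under 0.05 over the 12509 genes tested. All 10 genes passed the filter on low counts. All 10 differed among the 4 tissues, where 60.6% of all genes tested did. Comparisons between tissues share libraries and are not independent of each other. Where libraries of tissues are said not to overlap, the share of all genes that do likewise was not counted.

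**Figure D1:**
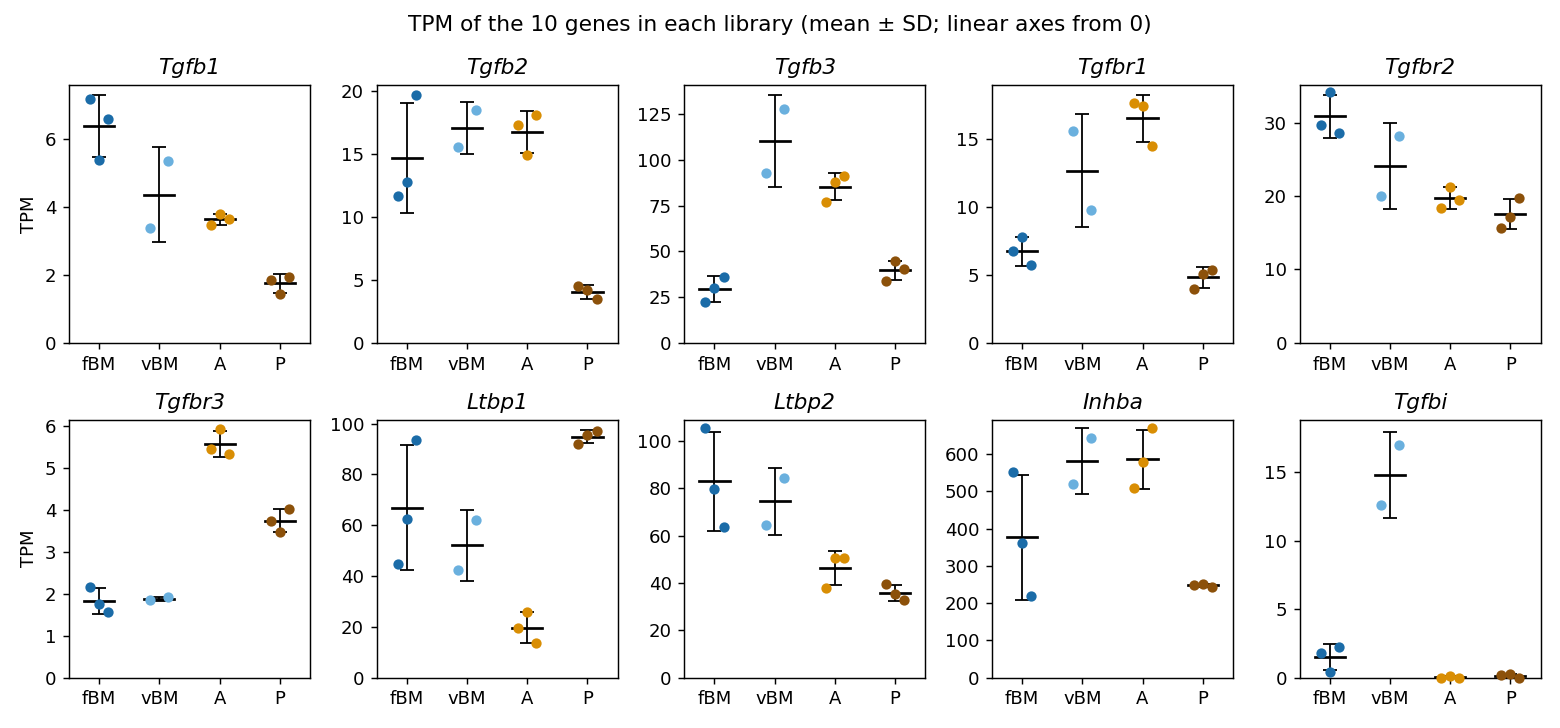
TPM (y axis, linear, from 0) of the 10 genes in each RNA-seq library of fBM-MSCs, vBM-MSCs, A-MSCs and P-MSCs (x axis). Points are libraries, the long bar is the mean and the whiskers the SD (n = 3, and n = 2 for vBM-MSCs). Tgfb3 and Tgfbr1 were highest in vBM-MSCs and A-MSCs, Tgfbr3 in A-MSCs and P-MSCs, and Tgfbi stood out in vBM-MSCs.

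Among the ligands, Tgfb3 was the most abundant transcript in all 11 libraries. Tgfb3 stood at 22.43, 29.78 and 36.20 TPM across fBM-MSCs, at 92.70 and 127.96 across vBM-MSCs, at 77.21, 87.79 and 91.00 across A-MSCs, and at 33.91, 44.55 and 40.39 across P-MSCs. The vBM-MSC and A-MSC libraries lay above every fBM-MSC and P-MSC library. Tgfb3 was lower in fBM-MSCs than in vBM-MSCs by −1.85 on the log2 scale (SE 0.18, adjusted p = 0.000177) and than in A-MSCs by −1.61 (SE 0.17, adjusted p = 3.29e-05). Against P-MSCs it was higher in vBM-MSCs (1.55, SE 0.18, adjusted p = 6.62e-05) and in A-MSCs (1.30, SE 0.17, adjusted p = 0.000285). The neighbours in this order, vBM-MSCs with A-MSCs (adjusted p = 0.358) and P-MSCs with fBM-MSCs (adjusted p = 0.15), did not pass the test, although the latter difference was called without fBM-MSC replicate 3 (adjusted p = 0.0222). The latter was also called with the replicate number as a block (adjusted p = 0.039). Since the 2 marrow sites lay at opposite ends of the order, marrow against non-marrow MSCs gave −0.03 on that scale (SE 0.12, adjusted p = 0.866).

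Open chromatin around Tgfb3, which lies on the minus strand at chr12:86056743-86079041 (mm10), was similar at the start site, with a highest summit of 9.93, 11.04, 10.30 and 11.40-fold enrichment in fBM-MSCs, vBM-MSCs, A-MSCs and P-MSCs. Fold enrichment is the pileup of cut sites at a summit over the genome-wide background. Upstream, in an intron of Ift43, a region 9225 bases from the start was listed in vBM-MSCs at 9.57-fold and in A-MSCs at 6.62-fold. In fBM-MSCs the nearest summit reached 4.41-fold, under the study's threshold of a −log10 q of 7, and P-MSCs had no summit within 500 bases. This was the Tgfb3 region with the highest fold enrichment among those listed in some tissues and not in others, and the tissues that had it were those with more Tgfb3 transcript. Its 201 bases around the summit, from the plus strand of GRCm38, are shown for that reason. In this and the other regions printed, capitals mark CAGAC (or GTCTG), the core letters of the SMAD binding element, TGANTCA, the AP-1 letters, and AGATAA (or TTATCT), the GATA letters, searched on both strands. The Tgfb3 window held none of them.
Tgfb3 region at chr12:86088166-86088366: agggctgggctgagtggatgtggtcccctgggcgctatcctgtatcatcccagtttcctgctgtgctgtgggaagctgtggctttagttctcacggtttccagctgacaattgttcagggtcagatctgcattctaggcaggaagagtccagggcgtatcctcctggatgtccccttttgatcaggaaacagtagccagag

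Tgfb1, the ligand whose latent form is stored in bone matrix, was scarcer. It was at 7.17, 5.37 and 6.59 TPM across fBM-MSCs, 3.37 and 5.35 across vBM-MSCs, 3.48, 3.79 and 3.64 across A-MSCs, and 1.86, 1.44 and 1.95 across P-MSCs. The 3 P-MSC libraries were the lowest of all, and the fBM-MSC libraries lay above those of every other tissue. Tgfb1 was higher in fBM-MSCs than in P-MSCs by 1.99 (log2, SE 0.27, adjusted p = 0.00012), and also above P-MSCs in vBM-MSCs (1.38, SE 0.29, adjusted p = 0.00309) and A-MSCs (1.25, SE 0.27, adjusted p = 0.00495). The call between fBM-MSCs and A-MSCs (0.74, SE 0.26, adjusted p = 0.0407) was lost when any 1 of 7 libraries was left out (fBM-MSC replicates 1 and 3, all A-MSC replicates, P-MSC replicates 1 and 3), with adjusted p from 0.0524 to 0.124. This call was also lost with the replicate number as a block (adjusted p = 0.0667). The summed level of 11 macrophage markers moved with Tgfb1, at 40.86 to 69.68 TPM across fBM-MSCs, 22 to 50.86 across vBM-MSCs, 16.21 to 26.38 across A-MSCs and 9.40 to 12.22 across P-MSCs. Of that list 3 genes had a mean of at least 1 TPM in each tissue, and its defining members Ptprc, Adgre1, Itgam and C1qa were at means of 0 to 0.27 TPM. The members did not share the order of the sum: Lyz2 and Fcer1g were higher in both marrow tissues, Cd68 was at means of 14.61 TPM in fBM-MSCs and 6.18 in P-MSCs against 1.80 in vBM-MSCs, and Csf1r was higher in A-MSCs (5.90) and P-MSCs (2.54) than in marrow (at most 0.89). Its part in the Tgfb1 differences was not tested.

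Tgfb2 was at 11.65, 12.78 and 19.68 TPM across fBM-MSCs, 15.60 and 18.50 across vBM-MSCs, 17.31, 14.91 and 18.09 across A-MSCs, and 4.51, 4.24 and 3.46 across P-MSCs. P-MSCs stood apart below all other tissues, which overlapped. The log2 fold changes over P-MSCs were 1.98 for fBM-MSCs (SE 0.20, adjusted p = 1.33e-05), 2.14 for vBM-MSCs (SE 0.21, adjusted p = 2.16e-05) and 2.23 for A-MSCs (SE 0.20, adjusted p = 2.78e-05). Among the other tissues no pair passed the test, with adjusted p from 0.299 to 0.788, except that fBM-MSCs were called lower than A-MSCs without fBM-MSC replicate 3 (adjusted p = 0.0155). The start site of Tgfb2 (chr1:186622792-186705989, minus strand) did not follow the transcript, since its highest summit was 15.08-fold in the P-MSC list and 14.72-fold in the A-MSC list against 8.46-fold in the fBM-MSC list and 8.09-fold in the vBM-MSC list. Within the gene body, regions numbered 8 in the A-MSC list, 4 in the fBM-MSC list, 4 in the vBM-MSC list and 3 in the P-MSC list.

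The make-up of the ligand transcripts differed with tissue. Tgfb3 made up 54.38 to 62.13% of the TPM of the 3 ligands in fBM-MSCs, and 78.79 to 88.69% in the libraries of the other tissues, without overlap. Tgfb1 made up 10.55 to 17.38% in fBM-MSCs and no more than 4.62% elsewhere. The summed ligand TPM was 50.55 ± 10.85 across fBM-MSCs and 45.44 ± 4.99 across P-MSCs (SD, n = 3 each), against 105.74 ± 7.39 across A-MSCs (SD, n = 3) and 131.74 ± 28.38 across vBM-MSCs (SD, n = 2). In fBM-MSCs and P-MSCs the sums were alike, but Tgfb1 and Tgfb2 together held a larger share in fBM-MSCs.

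**Figure D2:**
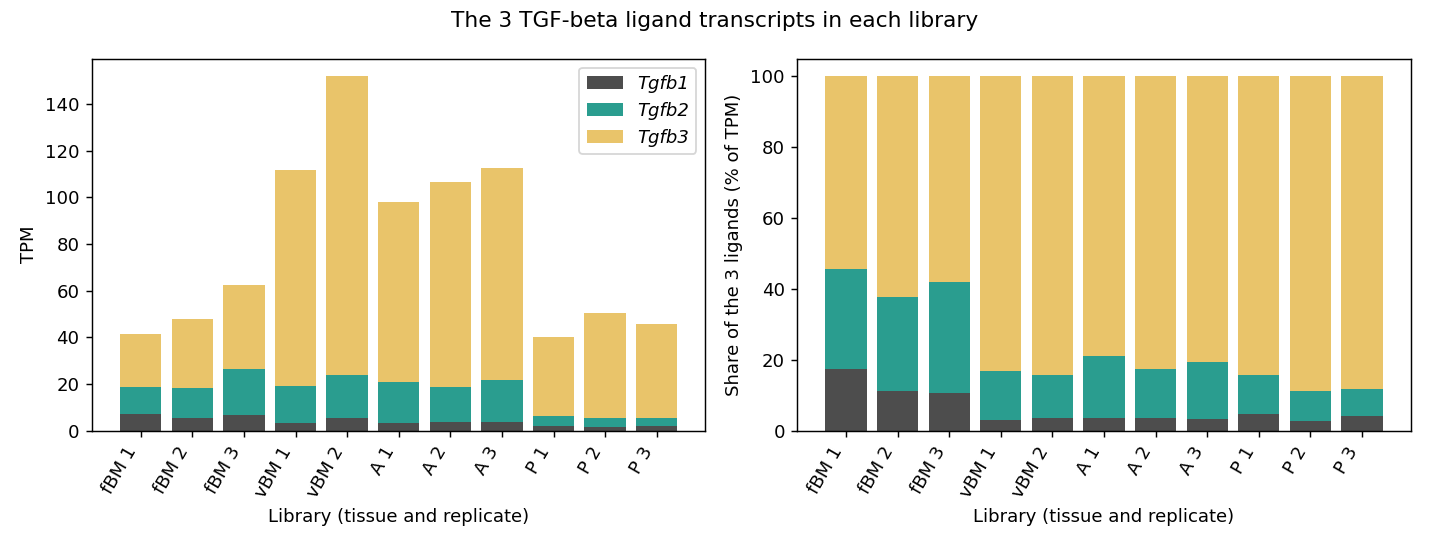
TPM of Tgfb1, Tgfb2 and Tgfb3 stacked for each RNA-seq library (left, y axis in TPM) and as a share of their sum (right, y axis in percent of TPM), with the tissue and replicate on the x axis. Each bar is 1 library. The Tgfb3 share lay between 54.38 and 62.13% in fBM-MSCs and at 78.79% or more in every other library.

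The signalling receptors followed different orders. Tgfbr1, the type I receptor kinase gene, which shares 2.8% of its exon bases with the antisense gene Gm32435, was at 6.75, 7.81 and 5.70 TPM across fBM-MSCs, 15.62 and 9.75 across vBM-MSCs, 17.64, 17.44 and 14.53 across A-MSCs, and 3.95, 5.11 and 5.39 across P-MSCs. As for Tgfb3, the vBM-MSC and A-MSC libraries lay above all others. Tgfbr1 was higher in A-MSCs than in P-MSCs by 1.97 (log2, SE 0.21, adjusted p = 8.69e-05) and lower in fBM-MSCs than in A-MSCs by −1.36 (SE 0.21, adjusted p = 0.000413). vBM-MSCs exceeded P-MSCs by 1.5 (SE 0.23, adjusted p = 0.000377), and the difference between fBM-MSCs and vBM-MSCs was −0.89 (SE 0.23, adjusted p = 0.0256). The latter call was lost without vBM-MSC replicate 1 (adjusted p = 0.296) or fBM-MSC replicate 3 (0.0585), with the replicate block (0.0625) and with 2 tissues only (0.138). Without vBM-MSC replicate 1, A-MSCs were instead called higher than vBM-MSCs (adjusted p = 0.0122), which they were not over all libraries (adjusted p = 0.162). fBM-MSCs exceeded P-MSCs by 0.61 (SE 0.21, adjusted p = 0.031), a call lost without fBM-MSC replicate 1 or 2 or P-MSC replicate 1 or 2 (adjusted p from 0.0575 to 0.118). It was also lost with the replicate number as a block (adjusted p = 0.0508).

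The Tgfbr1 start site (chr4:47353222-47414924, plus strand) had the strongest promoter summits of the 10 genes, at 40.83-fold in the fBM-MSC list, 33.48-fold in the vBM-MSC list, 35.68-fold in the A-MSC list and 44.14-fold in the P-MSC list, the 2 highest in the tissues with the least transcript. A separate intergenic region 919 bases upstream was listed in vBM-MSCs at 9.93-fold and in A-MSCs at 6.62-fold, with a summit of 4.41-fold under the threshold in fBM-MSCs and none within 500 bases in P-MSCs. It is printed because its tissues were again those with more transcript of the gene, and it held 2 SMAD cores.
Tgfbr1 region at chr4:47352203-47352403: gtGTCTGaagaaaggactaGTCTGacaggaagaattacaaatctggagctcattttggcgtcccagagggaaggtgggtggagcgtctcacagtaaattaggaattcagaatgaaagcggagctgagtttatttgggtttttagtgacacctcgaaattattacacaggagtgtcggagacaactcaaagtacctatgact

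Tgfbr2, the ligand-binding type II receptor, varied least among the 10 genes, by 1.76-fold between the highest and lowest tissue mean. It was at 29.73, 34.20 and 28.65 TPM across fBM-MSCs, 20.01 and 28.24 across vBM-MSCs, 18.41, 21.29 and 19.42 across A-MSCs, and 15.68, 17.11 and 19.74 across P-MSCs. Every fBM-MSC library lay above every other library. Tgfbr2 was higher in fBM-MSCs than in P-MSCs (0.94, SE 0.12, adjusted p = 9.06e-05) and A-MSCs (0.57, SE 0.12, adjusted p = 0.00334). vBM-MSCs exceeded P-MSCs by 0.53 (SE 0.14, adjusted p = 0.00906), but not without vBM-MSC replicate 2 (adjusted p = 0.0858). A-MSCs exceeded P-MSCs by 0.36 (SE 0.12, adjusted p = 0.0413), but not without A-MSC replicate 2 or 3 or P-MSC replicate 1 or 2 (adjusted p from 0.0952 to 0.152). The difference between the marrow sites (0.41, SE 0.14, adjusted p = 0.0763) was called without vBM-MSC replicate 2 (adjusted p = 0.0375).

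Tgfbr3, the co-receptor betaglycan, ran against the type II receptor. It was at 2.17, 1.77 and 1.57 TPM across fBM-MSCs, 1.85 and 1.92 across vBM-MSCs, 5.47, 5.94 and 5.35 across A-MSCs, and 3.74, 3.48 and 4.03 across P-MSCs. The A-MSC libraries were all above the P-MSC libraries, and these all above the marrow libraries. The log2 fold change was −1.68 for fBM-MSCs against A-MSCs (SE 0.17, adjusted p = 2.80e-05), −0.91 for fBM-MSCs against P-MSCs (SE 0.17, adjusted p = 0.00101), and 0.77 for A-MSCs against P-MSCs (SE 0.17, adjusted p = 0.00539). The marrow sites differed by 0.00 (SE 0.19, adjusted p = 0.995). All these calls were kept in each of the 11 fits that left out 1 library. The summed level of 7 mesothelial markers was also high in A-MSCs (77.68 to 95.69 TPM, 7 of 7 at a mean of at least 1) and P-MSCs (54.76 to 63.96, 2 of 7) and low in fBM-MSCs (1.84 to 11.11) and vBM-MSCs (9.26 to 12.27). In P-MSCs it was almost all Krt19, with Wt1 and Lrrn4 at 0, and its part in the Tgfbr3 difference was not tested. The sum of 7 endothelial markers was also higher in every non-marrow than in every marrow library, at 55.30, 7.60 and 3.40 TPM in A-MSCs, 8.29, 7.77 and 2.55 in P-MSCs and at most 1.19 in marrow. A-MSC replicate 1 stood apart, and without it A-MSCs and P-MSCs overlapped. By mean, the sum was led by Emcn (49.50, 5.51 and 2.32 TPM in A-MSCs and 5.13, 4.69 and 0.14 in P-MSCs). Kdr was at a mean of 2.56 TPM in P-MSCs, against 0.32 in A-MSCs and at most 0.12 in marrow. Cdh5 was at means of 0.66 or less and Pecam1 at 1.49 or less. The part of the endothelial markers was likewise not tested.

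Chromatin at Tgfbr3 (chr5:107106567-107289629, minus strand) was ordered as the transcript between marrow and non-marrow, with start site summits of 21.71-fold in the A-MSC list and 18.76-fold in the P-MSC list against 9.56-fold in the fBM-MSC list and 11.41-fold in the vBM-MSC list. Its body held 23 regions in the A-MSC list, against 14 in the fBM-MSC list, 15 in the vBM-MSC list and 15 in the P-MSC list. The lists differ in size, with 71345 summits at the threshold over the genome for A-MSCs, 64300 for fBM-MSCs, 64057 for P-MSCs and 59536 for vBM-MSCs, which bears on every count of regions given here. An intronic region 132007 bases into the gene reached 34.21-fold in the P-MSC list, 26.49-fold in the A-MSC list and 8.09-fold in the vBM-MSC list and had no summit within 500 bases in the fBM-MSC list. Another intronic region, 70212 bases from the start, was listed in A-MSCs at 20.23-fold, and the weaker summits there stayed at 4.05-fold in vBM-MSCs and 4.78-fold in P-MSCs. These were the strongest tissue-limited regions of the gene, of which the first held none of the 3 motifs and the second held 2 SMAD cores.
Tgfbr3 region at chr5:107157522-107157722: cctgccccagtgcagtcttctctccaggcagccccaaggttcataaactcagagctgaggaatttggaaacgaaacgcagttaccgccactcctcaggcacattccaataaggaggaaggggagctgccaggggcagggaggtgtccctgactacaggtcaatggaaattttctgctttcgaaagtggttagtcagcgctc
Tgfbr3 region at chr5:107219317-107219517: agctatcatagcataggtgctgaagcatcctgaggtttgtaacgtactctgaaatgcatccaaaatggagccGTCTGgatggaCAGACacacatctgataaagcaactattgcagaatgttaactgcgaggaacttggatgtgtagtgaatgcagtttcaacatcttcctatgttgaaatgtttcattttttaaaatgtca

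**Figure D3:**
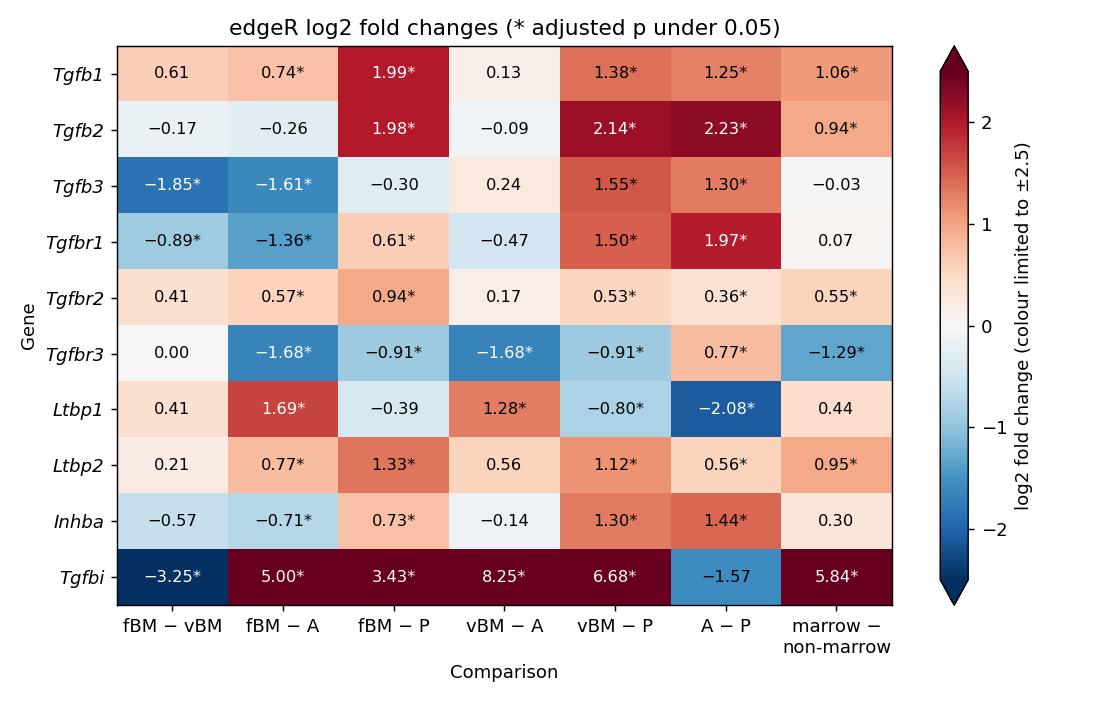
edgeR log2 fold changes of the 10 genes (rows) in the 6 pairs of tissues and between marrow and non-marrow MSCs (columns), first-named group minus second. Colour shows the log2 fold change, limited to ±2.5, and an asterisk an adjusted p under 0.05. Tgfb3 and Tgfbr1 were negative in fBM-MSCs minus vBM-MSCs and minus A-MSCs and positive in vBM-MSCs and A-MSCs minus P-MSCs, and Tgfbr3 was negative in every comparison of a marrow tissue with A-MSCs or P-MSCs.

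Ltbp1 and Ltbp2 differed in order. Ltbp1 was at 44.84, 62.48 and 93.55 TPM across fBM-MSCs, 42.29 and 62.07 across vBM-MSCs, 19.46, 25.93 and 13.59 across A-MSCs, and 92.15, 95.57 and 96.94 across P-MSCs. A-MSCs lay below every other library, while fBM-MSCs spread widely up to the P-MSC level. Ltbp1 was lower in A-MSCs than in P-MSCs by −2.08 (log2, SE 0.27, adjusted p = 0.000279), and higher in fBM-MSCs than in A-MSCs by 1.69 (SE 0.26, adjusted p = 0.000454). vBM-MSCs exceeded A-MSCs by 1.28 (SE 0.28, adjusted p = 0.00704), or 0.0538 as the adjusted p without vBM-MSC replicate 2. The call between vBM-MSCs and P-MSCs (−0.80, SE 0.29, adjusted p = 0.049) was lost without fBM-MSC replicate 2, A-MSC replicate 1 or any P-MSC replicate (adjusted p from 0.0622 to 0.0976). It was also lost with the replicate number as a block (adjusted p = 0.0664). The difference was −0.62 without vBM-MSC replicate 1 and −1.0 without vBM-MSC replicate 2. The difference between fBM-MSCs and P-MSCs (−0.39, SE 0.26, adjusted p = 0.229) was called without fBM-MSC replicate 3 (adjusted p = 0.0212).

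Ltbp1 (chr17:75005529-75392512, plus strand) has 2 curated start sites, and the strongest promoter summits sat at the internal one, at 34.95-fold in P-MSCs, 18.03-fold in A-MSCs and 11.77-fold in both fBM-MSCs and vBM-MSCs. P-MSCs had the most transcript and the highest summit, but A-MSCs, with the least transcript, had the second. The window of the P-MSC summit, 222 bases before the internal start, held 2 SMAD cores and is printed because start-site enrichment differed most there, by ratio, among the genes with a summit in all 4 lists. Over the gene body, regions numbered 31 in the P-MSC list, 28 in the A-MSC list, 22 in the fBM-MSC list and 17 in the vBM-MSC list.
Ltbp1 region at chr17:75178459-75178659: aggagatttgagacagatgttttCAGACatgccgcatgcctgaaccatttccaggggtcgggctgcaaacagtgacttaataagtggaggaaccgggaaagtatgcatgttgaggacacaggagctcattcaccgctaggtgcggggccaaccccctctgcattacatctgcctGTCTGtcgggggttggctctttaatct

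Ltbp2, which shares the LTBP domain architecture but is known mainly as a microfibril protein, was at 105.27, 79.64 and 63.71 TPM across fBM-MSCs, 64.48 and 84.35 across vBM-MSCs, 38.02, 50.40 and 50.62 across A-MSCs, and 39.53, 35.20 and 32.98 across P-MSCs. Every marrow library exceeded every non-marrow library. The log2 fold change was 1.33 for fBM-MSCs over P-MSCs (SE 0.19, adjusted p = 0.000172), 1.12 for vBM-MSCs over P-MSCs (SE 0.21, adjusted p = 0.00138) and 0.77 for fBM-MSCs over A-MSCs (SE 0.19, adjusted p = 0.00727). The difference of vBM-MSCs from A-MSCs (0.56, SE 0.21, adjusted p = 0.0691) was called without fBM-MSC replicate 1 or 3 (adjusted p = 0.024 and 0.0311), with 2 tissues only (0.0454), in DESeq2 (0.0311) and in limma (0.0304). That of A-MSCs from P-MSCs (0.56, SE 0.19, adjusted p = 0.0412) was lost without A-MSC replicate 2 or 3 or any P-MSC replicate (adjusted p from 0.0607 to 0.134). It was also lost with the replicate number as a block (adjusted p = 0.054). An antisense gene, D030025P21Rik, overlaps 11.1% of the exon bases of Ltbp2, and since the libraries carry no strand, its reads cannot be told apart there.

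The region of Ltbp2 (chr12:84783212-84876491, minus strand) with the highest tissue-limited enrichment lay 8799 bases upstream, at 27.22-fold in the P-MSC list, 18.39-fold in the A-MSC list and 8.09-fold in the vBM-MSC list, with a summit of 3.68-fold under the threshold in the fBM-MSC list. Its order ran opposite to the transcript, and it held 3 SMAD cores and 1 AP-1 motif. An intronic region 81636 bases from the start ran the other way, at 16.92-fold in the fBM-MSC list, 11.04-fold in the A-MSC list, 6.99-fold in the vBM-MSC list and 4.05-fold, under the threshold, in the P-MSC list.
Ltbp2 region at chr12:84885190-84885390: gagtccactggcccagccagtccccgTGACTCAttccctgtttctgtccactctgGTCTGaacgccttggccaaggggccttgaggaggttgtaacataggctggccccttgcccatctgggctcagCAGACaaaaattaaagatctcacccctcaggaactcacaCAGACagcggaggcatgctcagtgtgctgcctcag

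Inhba encodes the beta A subunit, whose dimer is activin A, a ligand that signals through the same SMADs as TGF-beta. It was the most abundant of the 10 transcripts in all 11 libraries, at 550.96, 360.04 and 218.08 TPM across fBM-MSCs, 518.15 and 643.00 across vBM-MSCs, 509.63, 578.90 and 668.50 across A-MSCs, and 248.38, 252.13 and 244.06 across P-MSCs. P-MSCs agreed closely with each other, while fBM-MSCs ranged from below P-MSCs to the level of vBM-MSCs. Inhba was higher in A-MSCs than in P-MSCs by 1.44 (log2, SE 0.26, adjusted p = 0.00208) and in vBM-MSCs than in P-MSCs by 1.30 (SE 0.28, adjusted p = 0.00386). Comparisons with fBM-MSCs depended on single libraries. That with A-MSCs (−0.71, SE 0.26, adjusted p = 0.0471) was lost when any 1 of 10 libraries was left out, all but fBM-MSC replicate 1, with adjusted p from 0.0543 to 0.144. That with P-MSCs (0.73, SE 0.26, adjusted p = 0.0359) was lost without fBM-MSC replicate 1 or 2 or any P-MSC replicate, with adjusted p from 0.05 to 0.174. It was also lost with the replicate number as a block (adjusted p = 0.0609). The difference between fBM-MSCs and vBM-MSCs (−0.57, SE 0.29, adjusted p = 0.22) was called without fBM-MSC replicate 1 (adjusted p = 0.00892). Promoter summits of Inhba (chr13:16011851-16031609, plus strand) were 17.29-fold in the P-MSC list, 15.08-fold in the fBM-MSC list, 12.88-fold in the A-MSC list and 9.2-fold in the vBM-MSC list.

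Tgfb2, Tgfb3, Tgfbr1 and Inhba had in common that vBM-MSCs and A-MSCs were the 2 highest tissues by mean, although Tgfb2 in fBM-MSCs was not called lower than in either, and Inhba in fBM-MSCs was not called lower than in vBM-MSCs (adjusted p = 0.22). A list of 6 smooth muscle genes, led by Acta2 and Tagln, was summed over the same libraries, since contractile genes are classical targets of this pathway as well as markers of another cell type. It stood at 1084 to 1477 TPM across fBM-MSCs, 6220 to 7739 across vBM-MSCs, 12361 to 12956 across A-MSCs and 4564 to 5290 across P-MSCs, with 4 to 6 of the 6 at a mean of at least 1 in each tissue. Myh11, a marker of mature smooth muscle, was at means of 0.06, 0.62, 6.63 and 4.28 TPM in the same order. Its part in the differences of the 4 genes was not tested.

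Tgfbi, a secreted matrix adaptor, had the widest range. It was at 1.82, 0.41 and 2.20 TPM in fBM-MSCs (60, 22 and 141 counts) and at 12.56 and 17 TPM in vBM-MSCs (624 and 1015 counts). Of the A-MSC libraries, replicate 2 had 8 counts and the others 0, and of the P-MSC libraries, replicates 1 and 2 had 13 and 14 counts and replicate 3 had 0. A count of 0 allows up to 3 counts, or 0.080 to 0.094 CPM at these depths. The tissues did not overlap except A-MSCs and P-MSCs. Tgfbi was higher in vBM-MSCs than in A-MSCs by 8.25 (log2, SE 1.20, adjusted p = 0.000669) and than in P-MSCs by 6.68 (SE 1.07, adjusted p = 0.000545), and in fBM-MSCs than in A-MSCs by 5.0 (SE 1.12, adjusted p = 0.00433) and P-MSCs by 3.43 (SE 0.96, adjusted p = 0.0117). In DESeq2 the last of these calls was lost (adjusted p = 0.0502). The size of these fold changes rests on the few counts of the non-marrow libraries and is not precise. The difference between fBM-MSCs and vBM-MSCs (−3.25, SE 0.90, adjusted p = 0.0363) was lost without fBM-MSC replicate 1 or 2, either vBM-MSC replicate or P-MSC replicate 1 (adjusted p from 0.0539 to 0.124), and also in DESeq2 (0.186), with the replicate block (0.151) and with 2 tissues only (0.0506).

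Near Tgfbi (chr13:56609586-56639359, plus strand), summits at the start site were weak or absent, at 6.25-fold in vBM-MSCs and 8.83-fold in P-MSCs and under the threshold in fBM-MSCs (3.68-fold) and A-MSCs (4.05-fold). The gene body held 2 listed regions in vBM-MSCs, 1 in fBM-MSCs and 0 in A-MSCs and P-MSCs. An intergenic region 2223 bases upstream was listed in vBM-MSCs at 9.2-fold and in fBM-MSCs at 6.62-fold, with 3.68-fold under the threshold in P-MSCs and no summit within 500 bases in A-MSCs. This region, the third by enrichment among the tissue-limited ones of the gene, was chosen after its values were seen, because its tissues were those in which Tgfbi was detected in every library. It held none of the 3 motifs. The first by enrichment, 18188 bases upstream, was 17.29-fold in P-MSCs, 6.99-fold in vBM-MSCs and 5.89-fold in A-MSCs, and so did not follow the transcript.
Tgfbi region at chr13:56607263-56607463: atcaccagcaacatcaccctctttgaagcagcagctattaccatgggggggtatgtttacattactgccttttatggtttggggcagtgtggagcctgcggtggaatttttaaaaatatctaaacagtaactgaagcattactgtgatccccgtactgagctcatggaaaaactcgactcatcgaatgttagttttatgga

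**Figure D4:**
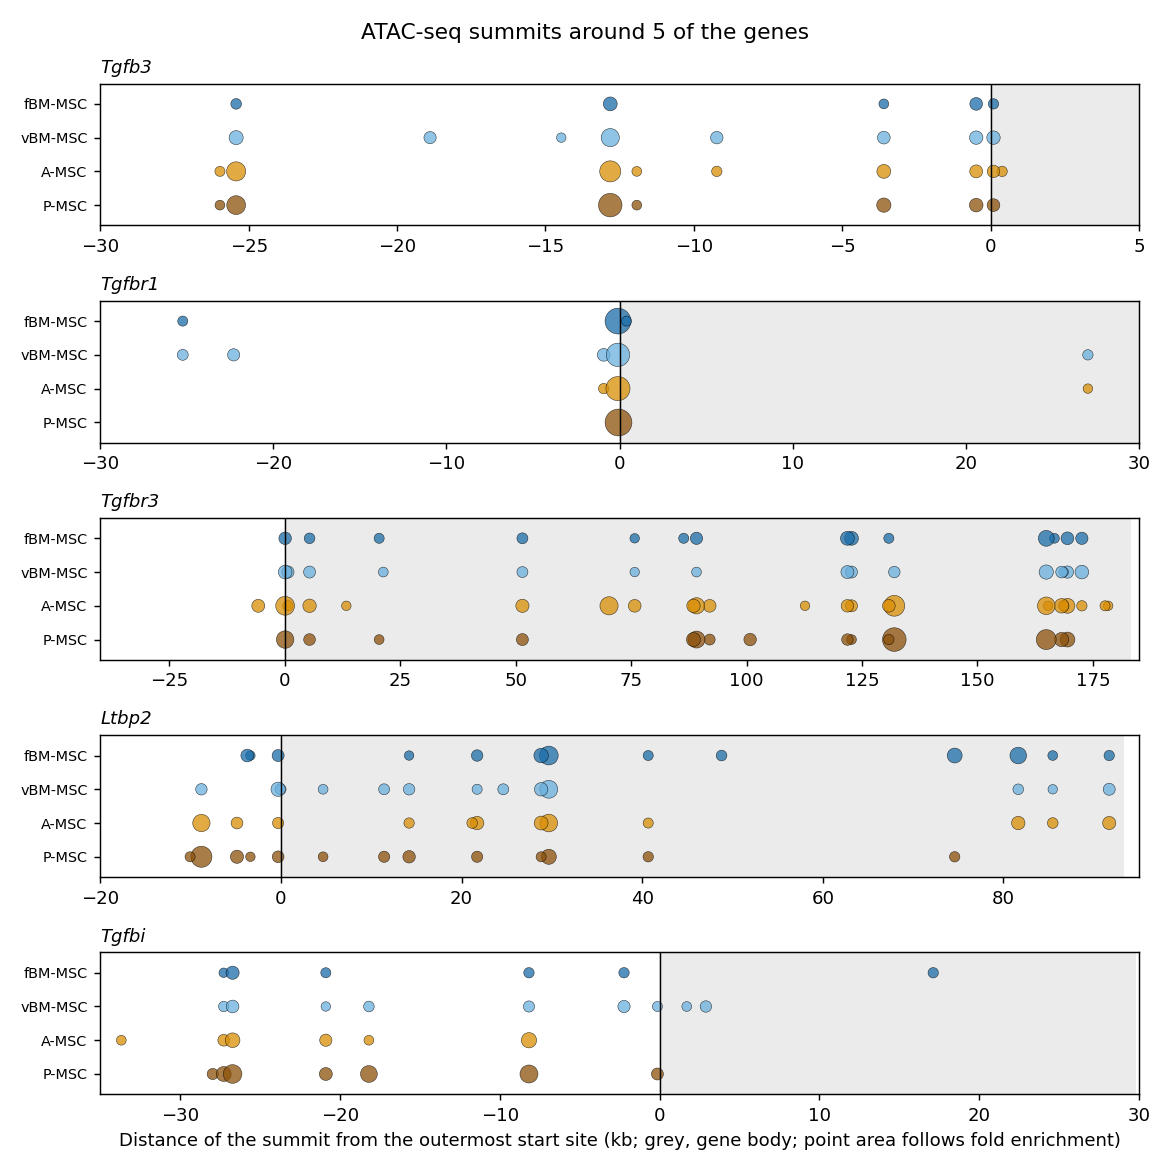
ATAC-seq summits at a −log10 q of at least 7 around Tgfb3, Tgfbr1, Tgfbr3, Ltbp2 and Tgfbi (panels), by tissue (rows) and distance from the outermost start site in kb (x axis, negative upstream). Each point is a merged region, its area follows the fold enrichment, and grey marks the gene body. The region 9225 bases upstream of Tgfb3 and that 919 bases upstream of Tgfbr1 appear in vBM-MSCs and A-MSCs, and that 2223 bases upstream of Tgfbi in fBM-MSCs and vBM-MSCs, among regions that other tissues share.

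Across the 10 genes the comparisons called unequal numbers. Between fBM-MSCs and vBM-MSCs 3 of 10 were called (Tgfb3, Tgfbr1 and Tgfbi, all lower in fBM-MSCs), against 12.8% of all genes tested, and this fell to 1 without vBM-MSC replicate 1, with the replicate number as a block, or with only these 2 tissues in the model. Between vBM-MSCs and A-MSCs 3 were called against 25.6%, namely Ltbp1 and Tgfbi higher and Tgfbr3 lower in vBM-MSCs. Between vBM-MSCs and P-MSCs all 10 were called (38.7%), with 8 higher in vBM-MSCs and Tgfbr3 and Ltbp1 lower. Between fBM-MSCs and A-MSCs 9 were called (40.9%), 5 higher and 4 lower in fBM-MSCs, and between fBM-MSCs and P-MSCs 8 (47.7%), 7 higher and 1 lower. Between A-MSCs and P-MSCs 9 were called (30.9%), of which 8 were higher in A-MSCs and Ltbp1 lower. The median log2 fold change of the 10 genes over P-MSCs was 0.84 for fBM-MSCs, 1.34 for vBM-MSCs and 1.01 for A-MSCs, where the medians of all genes tested were 0.02, 0.03 and −0.01. P-MSCs had the lowest mean of the 4 tissues for 6 of the 10 genes, the highest for Ltbp1 and the second highest for Tgfbr3.

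Between marrow and non-marrow MSCs, taken as the mean of the tissues on each side, 6 of 10 genes were called against 47.2% of all genes tested. Those higher in marrow were 5 (24.8% of all genes): Tgfb1 by 1.06 (log2, SE 0.20, adjusted p = 0.000944), Tgfb2 by 0.94 (SE 0.14, adjusted p = 0.000232), Tgfbr2 by 0.55 (SE 0.09, adjusted p = 0.000436), Ltbp2 by 0.95 (SE 0.14, adjusted p = 0.000204) and Tgfbi by 5.84 (SE 0.76, adjusted p = 8.38e-05). Of these, Ltbp2 and Tgfbi were higher in every marrow library than in every non-marrow library, whereas Tgfb2 in A-MSCs was at the marrow level. Between vBM-MSCs and A-MSCs, Tgfb1, Tgfbr2 and Ltbp2 were not called either (adjusted p = 0.786, 0.403 and 0.0691). Tgfbr3 alone was lower in marrow (22.4% of all genes were), by −1.29 (SE 0.13, adjusted p = 1.21e-05). Ltbp1 (0.44, SE 0.19, adjusted p = 0.0756) was called without fBM-MSC replicate 1 (adjusted p = 0.0234) or A-MSC replicate 2 (adjusted p = 0.0282), and Inhba (0.30, SE 0.19, adjusted p = 0.227) without fBM-MSC replicate 3 (adjusted p = 0.0148). The median log2 fold change of the 10 was 0.50, beside 0.03 for all genes.

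Other genes of the pathway were counted in 5 lists over the same contrast, to be read beside the 24.8% higher, 22.4% lower and 47.2% called of all genes. Of the latent complex and activation list, 6 of 13 tested genes were higher in marrow and 1 lower. Itgb3, an integrin subunit that can release latent TGF-beta, was at 10.75 ± 2.76 TPM across fBM-MSCs, 9.17 ± 1.29 across vBM-MSCs, 2.80 ± 0.84 across A-MSCs and 0.42 ± 0.38 across P-MSCs, and was higher in marrow by 3.19 (log2, SE 0.36, adjusted p = 2.71e-05). Mmp2, a gelatinase, was higher by 2.70 (SE 0.24, adjusted p = 4.55e-06), Itgb5, another integrin subunit that binds the latent complex, by 1.62 (SE 0.09, adjusted p = 2.23e-07) and Ltbp3 by 1.54 (SE 0.20, adjusted p = 9.09e-05). The list's median was 0.27 against 0.03 for all genes. Itgb3 and Itgb5 moved in the direction of Ltbp2 and Tgfb1.

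Of the other receptors and co-receptors, 2 of 8 were higher in marrow and 2 lower, near the shares of all genes (24.8% and 22.4%). Acvrl1, a type I receptor known from endothelium, was lower in marrow by −1.55 (SE 0.32, adjusted p = 0.00212), with 48.13 ± 2.92 TPM in P-MSCs and 5.48 ± 3.5 in fBM-MSCs, while vBM-MSCs (17.17 ± 1.16) and A-MSCs (16.68 ± 1.45) were alike. Eng (endoglin), an MSC surface protein and co-receptor, was higher by 0.96 (SE 0.16, adjusted p = 0.00041) and the BMP and activin receptor Acvr1 by 0.97 (SE 0.13, adjusted p = 7.70e-05), while the activin type II receptor Acvr2a was lower by −0.45 (SE 0.16, adjusted p = 0.0378). Of 6 other activins and antagonists, 4 were called, all higher in marrow (24.8% of all genes were). By pairs, 6 were higher in vBM-MSCs than in P-MSCs (38.7% of all genes were called) and 3 in fBM-MSCs than in P-MSCs (47.7%). Against A-MSCs, 2 were higher and 1 lower in vBM-MSCs (25.6%), and 2 higher and 3 lower in fBM-MSCs (40.9%). In fBM-MSCs 0 were higher and 3 lower than in vBM-MSCs (12.8%), and in A-MSCs 4 were higher and 1 lower than in P-MSCs (30.9%). Fmod, a small proteoglycan that binds TGF-beta, had the largest difference, with 222.88 ± 211.90 TPM across fBM-MSCs and 169.50 ± 37.51 across vBM-MSCs against 6.37 ± 2.63 across A-MSCs and 0.67 ± 0.32 across P-MSCs (log2 6.54, SE 0.55, adjusted p = 3.30e-06). Inhbb, the other activin beta subunit gene, was called higher in marrow (1.77, SE 0.44, adjusted p = 0.00601), although its highest level was 13.80 ± 1.02 TPM in A-MSCs, since P-MSCs were at 0.05 ± 0.06. Bgn (0.46, SE 0.09, adjusted p = 0.00186), a matrix proteoglycan, and Fstl3 (0.37, SE 0.10, adjusted p = 0.00969), an activin-binding antagonist, were also higher.

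Of 13 intracellular transducers, 4 were higher in marrow and 1 lower, and 8 did not pass the test, Smad2 and Smad4 among them. Of all genes, 24.8% were higher, 22.4% lower and 47.2% called, so the transducers did not stand out. The inhibitory Smad6 was higher by 0.96 (SE 0.24, adjusted p = 0.00639), the ubiquitin ligase gene Smurf2 by 0.88 (SE 0.13, adjusted p = 0.00025), the co-repressor gene Ski by 0.70 (SE 0.14, adjusted p = 0.00159) and Smad3 by 0.56 (SE 0.12, adjusted p = 0.00237). Of 20 response genes, 11 were higher in marrow (24.8% of all genes were), 5 lower (22.4%) and 4 not called. The matrix genes Postn (4.80, SE 0.57, adjusted p = 4.10e-05) and Fn1 (2.11, SE 0.17, adjusted p = 2.65e-06) and the cell cycle inhibitor Cdkn2b (2.82, SE 0.11, adjusted p = 6.40e-08) were higher. Postn was at 186.91 ± 155.10 TPM across fBM-MSCs and 0.32 ± 0.35 across P-MSCs. It was close in vBM-MSCs (58.68 ± 6.11) and A-MSCs (45.94 ± 19.70), so the contrast did not describe that pair. Cnn1, a contractile gene, was lower (−2.68, SE 0.31, adjusted p = 3.44e-05), at 20.30 ± 12.13 TPM across fBM-MSCs, 183.26 ± 100.72 across vBM-MSCs, 685.78 ± 95.16 across A-MSCs and 227.75 ± 38.63 across P-MSCs. The other lower calls were Acta2, Tagln, Tgfb1i1 and Tpm1, named after their values were seen. Of the 5, Acta2, Tagln and Tpm1 had a higher mean in vBM-MSCs (5014, 1749 and 1598 TPM) than in P-MSCs (3147, 1486 and 1568), so that the contrast did not describe that pair. By pairs, response genes were 10 higher and 1 lower in vBM-MSCs than in P-MSCs (38.7% of all genes were called), 9 and 5 in fBM-MSCs than in P-MSCs (47.7%), 5 and 4 in vBM-MSCs than in A-MSCs (25.6%), and 6 and 6 in fBM-MSCs than in A-MSCs (40.9%). The 9 called between A-MSCs and P-MSCs (30.9%) were all higher in A-MSCs, and in fBM-MSCs 1 was higher and 6 lower than in vBM-MSCs (12.8%).

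At the start sites, 9 of 10 genes had a summit in the fBM-MSC list and in the A-MSC list, where 87.1% and 89.7% of 11517 tested genes with a curated start did, and 10 in the vBM-MSC and P-MSC lists, where 89.0% and 88.8% did. For most of the 10 genes the start-site enrichment did not order the tissues as the transcripts did. For Tgfb1, the highest summit was 13.24-fold in the A-MSC list and 12.14-fold in the P-MSC list, the tissues with less transcript, against 11.04-fold in the fBM-MSC list and 9.57-fold in the vBM-MSC list. The highest summit and the highest mean TPM were in the same tissue for Tgfbr3 and Ltbp1 of the 10 genes. How often this holds for all genes was not counted, so it is not shown to be particular to these 10. For Tgfbr2 the fBM-MSC summit was the lowest, at 16.92-fold, and the P-MSC summit the highest, at 23.54-fold. No test was possible with 1 pooled list per tissue.

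**Figure D5:**
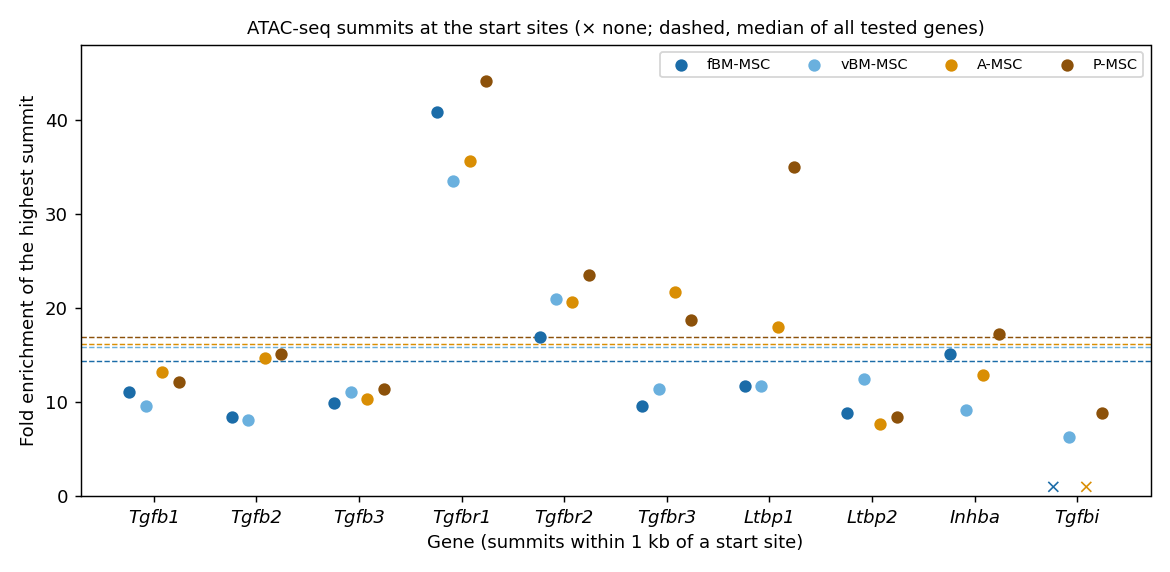
Fold enrichment (y axis, linear) of the highest ATAC-seq summit within 1 kb of a start site of each gene (x axis) in the 4 tissues' pooled peak lists. Each point is 1 list, a cross marks no summit at the threshold, and dashed lines are each tissue's median over tested genes with a summit (14.35 in fBM-MSCs to 16.92 in P-MSCs). Tgfbr1 lay at 33.48 or more in every tissue, and Ltbp1 reached 34.95 in P-MSCs.

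In the gene bodies and 50 kb on either side, 229 merged regions were listed in at least 1 tissue, of which 65 were in all 4 lists. A further 140 were tissue-limited, meaning that no summit at the threshold lay within 500 bases in the tissues without them. These numbers were not set against regions near all genes, so they describe these loci only. The 10 regions that were the strongest tissue-limited ones of their gene held a SMAD core in 4 cases, an AP-1 motif in 3 and the GATA letters in 0. Windows of the same 201 bases around all listed summits held a SMAD core in 41.8 to 43.0% of cases, AP-1 in 25.1 to 35.0% and GATA in 5.9 to 9.0%, by tissue. These are matches of letters and not bound sites. Of these 10 regions, those of Tgfb3 and Tgfbr1, printed above, were the ones listed only in the 2 tissues with the most transcript of the gene. For Tgfb1 the region lay 19048 bases from the start and was listed in P-MSCs at 13.61-fold and in fBM-MSCs at 10.67-fold, the tissues with the least and the most transcript. For Tgfb2 an intronic region 10526 bases from the start was at 15.45-fold in A-MSCs, 10.30-fold in P-MSCs and 6.99-fold in vBM-MSCs. For Tgfbr2 an intronic region 14089 bases from the start was highest, at 19.13-fold, in P-MSCs, which had the least transcript, with 8.83-fold in A-MSCs and 5.89-fold in fBM-MSCs. That of Ltbp1, 72551 bases from a start, was at 19.13-fold in the P-MSC list, 11.77-fold in the A-MSC list and 8.46-fold in the vBM-MSC list, and that of Inhba, 4806 bases from the start, was at 8.09-fold in the A-MSC list, 7.72-fold in the P-MSC list and 6.62-fold in the fBM-MSC list. With that of Ltbp2, the strongest regions of 5 genes (Tgfb1, Tgfb2, Tgfbr2, Ltbp2 and Inhba) were listed in P-MSCs, which had the lowest mean TPM of the gene. All 10 strongest regions except those of Tgfb3 and Tgfbr1 were listed in P-MSCs, and no share over other genes was counted. This overlap therefore does not show an inverse relation.

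The transcripts most like each gene, by Pearson's r of log2(TPM + 1) over 11 libraries that share tissues and are therefore not independent points, are given as a description. For Tgfb1 they were Dusp28 (r = 0.985), Entpd2 (0.972) and Enpp1 (0.969), an ectoenzyme that makes pyrophosphate. For Tgfb2 they were Hoxd8 (0.989), a position-specifying homeobox gene, Hspa2 (0.967) and Sepp1 (0.967). For Tgfb3 they were Msrb3 (0.956), Fam212a (0.953) and the Wnt antagonist Sfrp1 (0.950). All these correlations follow differences between tissues.

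The receptors were nearest to Msrb1 (0.968), Sp140 (0.967) and Golt1b (0.964) for Tgfbr1, to Tmx2 (0.969), Atp6v1d (0.961) and Ptprs (0.955) for Tgfbr2, and to Il1rl2 (0.979), Cldn12 (0.976) and Bmper (0.975), a secreted BMP regulator, for Tgfbr3. Ltbp1 was nearest to Cul7 (0.965), Id2 (0.964), a target of BMP signalling, and Kank1 (0.960), and Ltbp2 to Ppapdc3 (0.982), Pwwp2b (0.971) and Zfpl1 (0.967). Id2 was at means of 79.42 TPM across fBM-MSCs, 51.58 across vBM-MSCs, 24.69 across A-MSCs and 121.80 across P-MSCs, the order of Ltbp1. Inhba was nearest to Sbsn (0.965), the collagen cross-linking enzyme gene Loxl2 (0.963) and Trabd2b (0.961). Tgfbi was nearest to the stromal transcription factor gene Foxd1 (0.982), Pcp4l1 (0.977) and 1500015O10Rik (0.974), each highest in vBM-MSCs, with Foxd1 at 5.39 TPM there against 0.82 in fBM-MSCs and no more than 0.04 in the others.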

How the data were processed

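RNA-seq of 11 libraries and pooled ATAC-seq of 4 tissues were analysed from the deposited values. The authors made Smart-seq2 libraries, which carry no strand and no molecular identifiers, and ran RSEM with STAR against mm10. The expected counts deposited by them are RSEM's estimates per gene and are not normalized, and the deposited TPM correct for effective length and give every library the same total. ATAC-seq reads were trimmed by the authors (TrimGalore), who kept unique Bowtie alignments, removed duplicates and blacklisted regions, shifted reads for Tn5, and called peaks with MACS2 on reads pooled per tissue. To each list the labels assign 6 samples. These come from 3 replicates, each with repeated samples whose titles differ only in their last part. The deposited lists give the fold enrichment, a ratio over the genome-wide background, and the −log10 q of each summit. Summits were placed by the deposited offset, in bases from the start of a region. Tool versions are not given in the sources used here.

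Rounded expected counts entered the two-sided quasi-likelihood test of edgeR 4.0.16 (R 4.3.3, TMM normalization, Benjamini-Hochberg adjustment), with 1 model of 4 tissues over all libraries and genes of at least 1 CPM in at least 2 libraries. The median biological coefficient of variation was 19.8%. p-values measure the spread between libraries, each labelled a replicate. Alternatives were RLE size factors, DESeq2 1.42.0, no filter, limma 3.58.1 on log2(TPM + 1), a replicate block, 2 tissues only, and leaving out each library. Summits at a −log10 q of at least 7 were merged within 250 bases between tissues and annotated with RefSeq curated transcripts of GRCm38. A search of 500 bases for summits of tissues without a region was added after seeing the data, because merging can split a shared region.

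Named were all 10 genes, per pathway list at most 4 genes called between marrow and non-marrow MSCs with the largest change, the 3 nearest genes of each member, at most 2 markers per list by level with the defining ones, and the strongest tissue-limited regions, with exceptions marked. The members and lists were chosen with earlier results of these data known. Columns holding the values of samples outside the series numbered 0.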

Additional observations from a re-analysis of the deposited data

How the results depend on the processing

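Of 60 tests of the 10 genes between pairs of tissues, 42 were called, and 30 of these calls were kept under every alternative run (RLE size factors, DESeq2, no filter, limma on log2(TPM + 1), the replicate block, 2 tissues only and each of 11 libraries left out). No called difference changed sign. Among uncalled differences, 13 of 369 alternative values had the opposite sign. When 1 library was left out, the log2 fold change ranged from −0.13 to 0.34 for Tgfb1 between vBM-MSCs and A-MSCs (−0.13 without vBM-MSC replicate 2), from −0.16 to 0.10 for Tgfbr3 and from −0.03 to 0.37 for Ltbp2 between fBM-MSCs and vBM-MSCs, and, between marrow and non-marrow MSCs, from −0.12 to 0.04 for Tgfb3 and from −0.17 to 0.25 for Tgfbr1. The sign also changed for Tgfb3 between marrow and non-marrow MSCs with the replicate block (0.00), for Tgfbr3 between the marrow sites with no filter (−0.01) and in limma (−0.03), and for Tgfb2 between vBM-MSCs and A-MSCs in limma (0.02). The number of genes called between fBM-MSCs and vBM-MSCs fell from 3 to 1 with the replicate block and to 1 with 2 tissues only, and ranged from 1 to 3 when 1 library was left out, the 1 being without vBM-MSC replicate 1; the cause was not tested beyond the smaller number of samples in the latter fits. In that comparison Tgfbr1 had an adjusted p of 0.0625 with the replicate block and 0.138 with 2 tissues only, and Tgfbi 0.151 and 0.0506, with 0.186 in DESeq2. All other counts of genes called stayed within 1.5 times their value over the alternatives, from 6 to 7 between marrow and non-marrow MSCs and from 33 to 40 pathway genes.

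Replicate numbers were not taken to pair the libraries, since no source ties a number to a mouse. Deviations from the tissue means correlated at −0.031 to 0.147 (median 0.038) for same-numbered libraries of different tissues and at −0.151 to 0.151 (median −0.01) for the others. Of the same-numbered pairs, only replicate 1 of fBM-MSCs and vBM-MSCs exceeded 0.1. The deviations of the 2 vBM-MSC libraries mirror each other, so these values are not independent and cannot decide the pairing. With the replicate block, the calls of Tgfb1 between fBM-MSCs and A-MSCs (adjusted p = 0.0667), Tgfbr1 (0.0508) and Inhba (0.0609) between fBM-MSCs and P-MSCs, Ltbp1 between vBM-MSCs and P-MSCs (0.0664) and Ltbp2 between A-MSCs and P-MSCs (0.054) were lost, and Tgfb3 between fBM-MSCs and P-MSCs was gained (0.039). Limma on log2(TPM + 1) lost Tgfbr1 (0.0966) and Inhba (0.115) between fBM-MSCs and P-MSCs, Tgfbr2 between vBM-MSCs and P-MSCs (0.0574), and Tgfbr2 (0.413) and Ltbp2 (0.154) between A-MSCs and P-MSCs, and gained Ltbp2 between vBM-MSCs and A-MSCs (0.0304). DESeq2 gained Tgfbr2 between fBM-MSCs and vBM-MSCs (0.0375), Ltbp2 between vBM-MSCs and A-MSCs (0.0311) and Ltbp1 between marrow and non-marrow MSCs (0.0301), and lost Tgfbi between fBM-MSCs and P-MSCs (0.0502). No filter lost Tgfb1 between fBM-MSCs and A-MSCs (0.0832) and Tgfbr2 between A-MSCs and P-MSCs (0.0668), and 2 tissues only lost Inhba between fBM-MSCs and A-MSCs (0.101) and P-MSCs (0.0682) and gained Ltbp2 between vBM-MSCs and A-MSCs (0.0454). Where 1 tissue keeps a single library, that library is assumed to vary like the others.

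At a −log10 q of at least 20, start-site summits were left for 5 of 10 genes in the fBM-MSC list, for 6 in that of vBM-MSCs and for 8 each in those of A-MSCs and P-MSCs, and 92 regions near the genes, 21 of them in all 4 lists. The absence of weak summits from a list is limited by the depth of that list, which is not known here.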
